A study of Mus musculus with 10 samples.

Results

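Interferon gamma (Ifng), the defining cytokine of type 1 helper T (Th1) cells, was followed together with 6 genes that direct or mark the Th1 fate: Tbx21, Eomes, Hlx, Runx3, Il12rb2 and Cxcr3. The genes were chosen by name. Each had 1 probe set that carried a single gene symbol, so all 7 of 7 were measured, out of 22180 genes in all. No filter on low values was used. Expression was measured on 10 arrays, 1 for each culture, of CD4-positive lymphocytes from spleens of female wild-type Balb/c mice aged 10 to 14 weeks.

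Every culture was stimulated through CD3, the signalling part of the T cell receptor, with an antibody at 4 µg/ml, and through the costimulatory receptor CD28 with an antibody at 30 ng/ml. Th17 cultures (n = 4) also received IL-6 (20 ng/ml), TGF-beta (5 ng/ml), IL-23 (10 ng/ml) and an antibody that binds interferon gamma (10 µg/ml). Th2 cultures (n = 3) received IL-4 (100 ng/ml) and the same antibody at the same dose. Th0 cultures (n = 3), the control, received neither cytokines nor that antibody. Medium was exchanged at 72 h, and no source used here gives the time of harvest. The comparison of Th2 and Th17 with Th0 therefore sets cultures with the antibody against cultures without it, and the antibody and the polarising cytokines cannot be told apart. None of the 3 groups received IL-12, the cytokine of a Th1 culture. The sample titles call the replicates biological, but whether they came from different mice is not stated. A p-value here therefore measures the spread between these cultures, which may not be a spread between mice.

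In a Th1 response, signals from the T cell receptor and from interferon gamma raise Tbx21 (T-bet), the T-box factor that opens the Ifng gene and raises Il12rb2. Il12rb2 is the chain that makes the IL-12 receptor able to signal, through STAT4, which acts on Ifng in turn. Runx3 binds Ifng together with T-bet and silences Il4, Hlx is a homeobox factor that T-bet induces, and Eomes is the second T-box factor of effector lymphocytes. Cxcr3, a T-bet target, is the receptor for chemokines that interferon gamma induces. An antibody that binds interferon gamma outside the cell blocks its receptor loop and does not itself remove the Ifng transcript.

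The promoters of Ifng and Il12rb2 are shown because these 2 members had the largest differences from Th0, in opposite directions. They are RefSeq sequences of assembly GRCm38.p6, from 250 bases before the transcription start to 50 after it. The Ifng window lies at chr10:118440796-118441095 on the + strand and the Il12rb2 window at chr6:67376139-67376438 on the - strand. Capitals mark the STAT dimer motif TTCNNNGAA.
Ifng: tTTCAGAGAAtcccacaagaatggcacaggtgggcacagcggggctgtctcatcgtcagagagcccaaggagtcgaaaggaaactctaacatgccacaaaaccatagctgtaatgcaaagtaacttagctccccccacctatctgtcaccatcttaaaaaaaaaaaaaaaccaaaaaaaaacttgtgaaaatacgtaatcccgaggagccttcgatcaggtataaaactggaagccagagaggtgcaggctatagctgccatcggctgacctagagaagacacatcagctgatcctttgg
Il12rb2: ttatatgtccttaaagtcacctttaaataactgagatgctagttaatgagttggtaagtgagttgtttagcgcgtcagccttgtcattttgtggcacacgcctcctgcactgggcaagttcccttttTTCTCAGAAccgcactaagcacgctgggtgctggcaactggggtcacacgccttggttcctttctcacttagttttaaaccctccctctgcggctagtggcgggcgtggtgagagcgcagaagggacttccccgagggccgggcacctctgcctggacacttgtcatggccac
The table of promoters held a window for each of the 7 members, with 2 windows for Runx3, so 8 in all. TTCNNNGAA, which reads the same on both strands, was found in 2 of the 8, the ones shown, with its first base at -249 in Ifng and at -123 in Il12rb2. It occurred in 8.30% of all 32851 promoter windows of the same length. The Runx motif TGTGGT, searched on both strands, was in 2 of the 8 windows (Cxcr3 and 1 of the Runx3 windows) and in 16.8% of all windows. The T-box half-site GGTGTGA, the AP-1 motif TGANTCA and the GATA motif AGATAA, also searched on both strands, were in 0 of the 8 windows and in 3.98%, 7.81% and 11.2% of all windows. The Ifng, Il12rb2, Cxcr3 and Runx3 matches do not overlap a match to another motif. A match is only a run of letters and was not tested as a binding site.

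Il17f, a signature cytokine of Th17 cells, differed by 4.85 on the log2 scale in Th17 against Th0 (limma, adjusted p = 0.000676), and Il4, that of Th2 cells, by 0.71 in Th2 against Th0 (adjusted p = 0.819). The mean of 9 T cell identity genes lay between 8.56 and 9.16 in Th17, between 8.69 and 9.29 in Th2 and between 8.97 and 9.53 in Th0. Th17 replicate 4 and Th2 replicates 2 and 3 stood apart on the first principal component, which held 35.8% of the variance. These 3 arrays also had the lowest T cell identity means, at 8.56, 8.69 and 8.71, and the other arrays had 8.97 or more. Their interquartile ranges over all probe sets were 2.09, 2.15 and 1.95. That range was 2.08 on Th0 replicate 1 and 2.18 to 2.41 on the other arrays. The part of these features in the member values on the 3 arrays was not tested. Th17 replicates 2 and 3 and Th0 replicate 1, called the 3 basophil-marker-high arrays below, had the highest mean of 11 markers of basophils and mast cells, at 5.06, 5.17 and 6.59. These arrays are named below wherever a member follows them, with the value that the comparison takes without them. In bulk samples such as these, fewer cells of a type and less transcript per cell cannot be told apart.

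**Figure D1:**
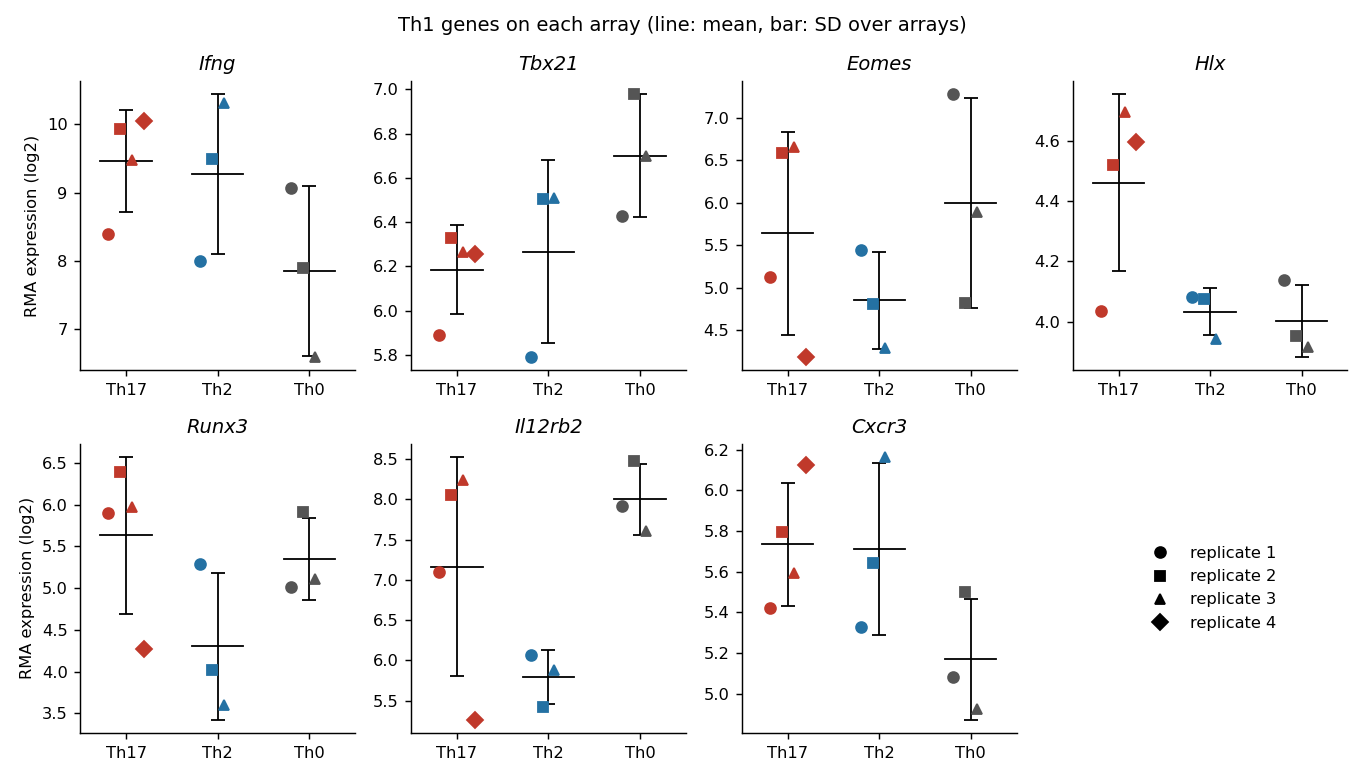
RMA expression (log2) of the 7 genes on each array. Points are arrays, with a marker shape for each replicate number, horizontal lines are group means and bars are the SD (n = 4 Th17, 3 Th2, 3 Th0); each panel has its own vertical scale, which does not start at 0. The Il12rb2 points of Th2 all lie below those of Th0, the Tbx21 points of Th17 all lie below those of Th0, and the Ifng points of the groups overlap.

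None of the 7 genes passed the test in any comparison. The test was limma on all 22180 genes with Benjamini-Hochberg adjustment and a threshold of 0.05. In the average of Th2 and Th17 against Th0, 0 of 7 members and 0.00902% of all genes were called. An unadjusted p under 0.05 was reached by 4 members (Ifng, Tbx21, Il12rb2 and Cxcr3) and by 5.55% of all genes. Means were higher for 3 of 7 members (Ifng, Hlx and Cxcr3) and for 47.8% of all genes, and the groups did not overlap for 0 of 7 members and 1.65% of all genes. In Th2 against Th0, 0 of 7 members and 0% of all genes were called, and 1 member (Il12rb2) had an unadjusted p under 0.05, as did 6.34% of all genes. Means were higher for 3 of 7 members and 47.7% of all genes, and the groups did not overlap for 1 of 7 (Il12rb2) and 8.43% of all genes. In Th17 against Th0, 0 of 7 members and 0.104% of all genes were called, and 4 members (Ifng, Tbx21, Hlx and Cxcr3) had an unadjusted p under 0.05, as did 5.17% of all genes. Means were higher for 4 of 7 members and 46.8% of all genes, and the groups did not overlap for 1 of 7 (Tbx21) and 7.57% of all genes. In Th17 against Th2, where both groups had the antibody, 0 of 7 members and 0.0766% of all genes were called, and 3 members (Hlx, Runx3 and Il12rb2) had an unadjusted p under 0.05, as did 6.25% of all genes. Means were higher for 6 of 7 members and 48.4% of all genes, and the groups did not overlap for 0 of 7 and 5.6% of all genes. The intervals given below hold for a single gene and are not adjusted for the number of genes. The comparisons with Th0 share the Th0 arrays, so a similar difference in Th2 and in Th17 is not a repeat of it.

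Ifng (probe set 17237589), on chromosome 10, was present in every group, and its mean was higher in the cultures with the antibody than in Th0. It stood at 8.40, 9.93, 9.48 and 10.05 on Th17 replicates 1 to 4 and at 7.995, 9.50 and 10.31 on Th2 replicates 1 to 3, against 9.07, 7.90 and 6.59 on Th0 replicates 1 to 3. The lowest Th17 and the lowest Th2 array, replicate 1 of each, lay below the highest Th0 array, so the groups overlapped. The means were 9.46 ± 0.75 in Th17 (SD, n = 4), 9.27 ± 1.17 in Th2 (SD, n = 3) and 7.85 ± 1.24 in Th0 (SD, n = 3). The order of the levels was Th17, Th2, Th0, and Th17 and Th2 differed by 0.20, less than the SD of either.

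The average of Th2 and Th17 lay above Th0 by 1.51 ± 0.58 (SE), or 2.85-fold with a 95% interval of 1.17-fold to 6.96-fold (limma, adjusted p = 0.876). The difference was 1.61 in Th17 (adjusted p = 0.906) and 1.41 in Th2 (adjusted p = 0.795), each against Th0. Th0 replicate 3 held the lowest Ifng value of all arrays, and without it the average difference was 0.88. Without the 3 arrays apart on the first component it was 0.78 (adjusted p = 0.828), and the Th2 difference, then resting on Th2 replicate 1 alone, was 0.14. Without the 3 basophil-marker-high arrays it was 2.00 (adjusted p = 0.990). The direction held in all 18 alternative settings, between 0.78 and 2.12 for the average.

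Natural killer cells and CD8 T cells also make interferon gamma. The mean of 12 markers of these cells was 4.40 to 4.54 in Th17, 3.94 to 4.25 in Th2 and 4.00 to 4.51 in Th0. In Th17 against Th0, 7 of the 12 had higher means and 5 lower, where 46.8% of all genes were higher. The CD8 chains Cd8a and Cd8b1 were among the lower, averaging 4.08 and 5.25 in Th17 and 4.37 and 5.72 in Th0. In the same comparison 4 of the 12 did not overlap, all higher in Th17, as was the case for 3.22% of all genes. These were Klrk1 (NKG2D), at 3.69 to 4.89 in Th17 and 3.39 to 3.57 in Th0, Klrc1 (NKG2A), at 4.74 to 5.18 in Th17 and 3.05 to 3.91 in Th0, the granzyme Gzmk, at 4.75 to 4.89 in Th17 and 3.71 to 4.02 in Th0, and the receptor Cd160, at 3.83 to 4.29 in Th17 and 3.55 to 3.77 in Th0. The NK cell receptors Klrb1c and Ncr1 (NKp46) lay between 2.57 and 3.37 and between 3.42 and 4.36 over all arrays. The median over all probe sets was 3.39 to 3.61 on the arrays, so several of these markers lay near it. Among the 12 markers 0 passed the test in any comparison. Klrd1, the CD94 receptor chain, and Ctsw, a protease of cytotoxic cells, were counted in the list of effector genes below instead. Klrd1 was called in Th17 against Th0 (difference 2.29, limma, adjusted p = 0.0381), beside 0.104% of all genes. Against Th2, Klrd1 (2.60, adjusted p = 0.0177) and Ctsw (4.11, adjusted p = 0.00446) were called in Th17, beside 0.0766% of all genes. Their part in the Ifng values was not tested.

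Tbx21 (probe set 17268445), on chromosome 11, encodes T-bet, the factor that sets the Th1 programme, and its mean was lower in both groups with the antibody. It stood at 5.89, 6.33, 6.26 and 6.26 on Th17 replicates 1 to 4 and at 5.79, 6.50 and 6.51 on Th2 replicates 1 to 3, against 6.43, 6.98 and 6.70 on Th0 replicates 1 to 3. All 4 Th17 arrays lay below all 3 Th0 arrays, as was the case for 4.35% of all genes. Th2 replicates 2 and 3 lay above Th0 replicate 1, so those groups overlapped. The means were 6.19 ± 0.20 in Th17, 6.27 ± 0.41 in Th2 and 6.70 ± 0.28 in Th0 (SD, n = 4, 3 and 3).

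The average of Th2 and Th17 differed from Th0 by -0.47 ± 0.19 (SE) on the log2 scale, 1.39-fold lower (95% interval of the difference -0.90 to -0.05; limma, adjusted p = 0.876). In Th17 the difference was -0.52 (adjusted p = 0.924) and in Th2 -0.43 (adjusted p = 0.804). The Th2 value was -0.20 without Th2 replicate 1 and -0.91 without the 3 arrays apart on the first component, which leave Th2 replicate 1 alone. The average kept its direction in all 18 alternative settings and lay between -0.73 and -0.34, the first of these without the 3 arrays apart. Between Th17 and Th2 the difference was -0.08 (95% interval -0.55 to 0.39; adjusted p = 0.995). Th0 thus had the highest Tbx21 mean and the lowest Ifng mean of the 3 groups.

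Il12rb2 (probe set 17467323), on chromosome 6, encodes the chain that makes the IL-12 receptor able to signal, and it had the largest difference of the 7 members. It stood at 7.10, 8.06, 8.24 and 5.26 on Th17 replicates 1 to 4 and at 6.07, 5.42 and 5.89 on Th2 replicates 1 to 3, against 7.91, 8.48 and 7.61 on Th0 replicates 1 to 3. The 3 Th2 arrays lay below the 3 Th0 arrays, as was the case for 3.94% of all genes. The Th17 arrays were split, with replicates 2 and 3 among the Th0 values and replicate 4 the lowest of all arrays. The means were 7.16 ± 1.36 in Th17, 5.79 ± 0.33 in Th2 and 7.999 ± 0.44 in Th0 (SD, n = 4, 3 and 3).

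Th2 differed from Th0 by -2.21 ± 0.63 (SE), 4.61-fold lower (95% interval of the difference -3.58 to -0.83; limma, adjusted p = 0.767). By its p, Il12rb2 ranked 103 of 22180 genes in that comparison, in which 0 genes were called. The difference kept its direction in all 18 alternative settings, between -2.40 and -1.71, and Th2 replicate 1, the Th2 array that did not stand apart on the first component, gave -1.93 when it stood alone for Th2. The lowest adjusted p among the settings was 0.0857, with arrays weighted by their quality. Th17 differed from Th0 by -0.83 (95% interval -2.12 to 0.45; adjusted p = 0.999), and this moved with the arrays used: it was -0.20 without Th17 replicate 4 and -1.86 without the 3 basophil-marker-high arrays. Th17 lay above Th2 by 1.37 (95% interval 0.08 to 2.66; adjusted p = 0.750), and by 0.39 without the 3 basophil-marker-high arrays.

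Runx3 (probe set 17419840), on chromosome 4, encodes the Runt factor that acts with T-bet at Ifng and Il4, and its lowest values lay on the arrays that stood apart. It stood at 5.90, 6.40, 5.98 and 4.27 on Th17 replicates 1 to 4 and at 5.29, 4.02 and 3.60 on Th2 replicates 1 to 3, against 5.02, 5.92 and 5.11 on Th0 replicates 1 to 3. The 3 lowest values were those of Th2 replicates 2 and 3 and Th17 replicate 4, the 3 arrays apart on the first component. The means were 5.63 ± 0.94 in Th17, 4.30 ± 0.88 in Th2 and 5.35 ± 0.49 in Th0 (SD, n = 4, 3 and 3), in the order Th17, Th0, Th2. Th2 differed from Th0 by -1.04 (limma, adjusted p = 0.804), and by -0.06 without the 3 arrays apart and -0.69 without Th2 replicate 3. Th17 differed from Th0 by 0.29 (adjusted p = 0.999), by 0.74 without those 3 arrays and by -0.43 without the 3 basophil-marker-high arrays. Th17 differed from Th2 by 1.33 (95% interval 0.21 to 2.46; adjusted p = 0.693), by 0.80 without the 3 arrays apart and by 0.78 without the 3 basophil-marker-high arrays.

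Eomes (probe set 17522876), on chromosome 9, encodes eomesodermin, the T-box factor of CD8 T cells and NK cells, and its highest values lay on the arrays with the most basophil and mast cell transcript. It stood at 5.13, 6.58, 6.66 and 4.18 on Th17 replicates 1 to 4 and at 5.44, 4.81 and 4.29 on Th2 replicates 1 to 3, against 7.28, 4.82 and 5.89 on Th0 replicates 1 to 3. The 3 highest values were those of Th0 replicate 1 and Th17 replicates 3 and 2. These were the 3 arrays with the highest mean of 11 basophil and mast cell markers, which was 3.28 to 5.17 in Th17, 3.21 to 3.83 in Th2 and 3.26 to 6.59 in Th0. Of those 11 markers, 10 had lower values in the average of Th2 and Th17 against Th0, as did 52.2% of all genes, and 0 were called. RMA gives no value of 0. On Th17 replicates 2 and 3 the receptor chain Fcer1a stood at 7.56 and 7.38 and the protease Mcpt8 at 7.23 and 8.14, and on Th0 replicate 1 they stood at 8.40 and 9.54. The proteases Prss34 and Mcpt4 reached 6.06 and 8.19 on Th0 replicate 1, and at most 4.00 and 4.15 on the Th17 arrays. The means of Eomes were 5.64 ± 1.20 in Th17, 4.85 ± 0.57 in Th2 and 5.996 ± 1.23 in Th0 (SD, n = 4, 3 and 3), each difference being smaller than the SD in Th0.

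Among 5833 named genes with a mean log2 value of at least 5, the 3 most like Eomes over the 10 arrays were Cpa3, a carboxypeptidase of mast cells and basophils (Pearson's r = 0.974, Spearman's rho = 0.964), Mcpt8, a basophil protease (r = 0.968, rho = 0.939), and Tph1, the enzyme that starts serotonin synthesis in mast cells (r = 0.960, rho = 0.939). After the group means were taken off, r was 0.970, 0.962 and 0.978. These are descriptions over 10 arrays in 3 groups, and the search picked the highest of many. The average of Th2 and Th17 differed from Th0 by -0.75 (95% interval -2.07 to 0.57; limma, adjusted p = 0.921), and Th17 from Th0 by -0.36 (adjusted p = 0.999). The average difference was -0.11 without Th0 replicate 1 and -1.34 without Th0 replicate 2. Without the 3 arrays highest in these markers the average difference was -0.60 and that of Th17 -0.70. In Th17 against Th0 the sign turned without the 3 arrays apart on the first component, to 0.13. Which cells in these cultures held the Eomes transcript was not tested.

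**Figure D2:**
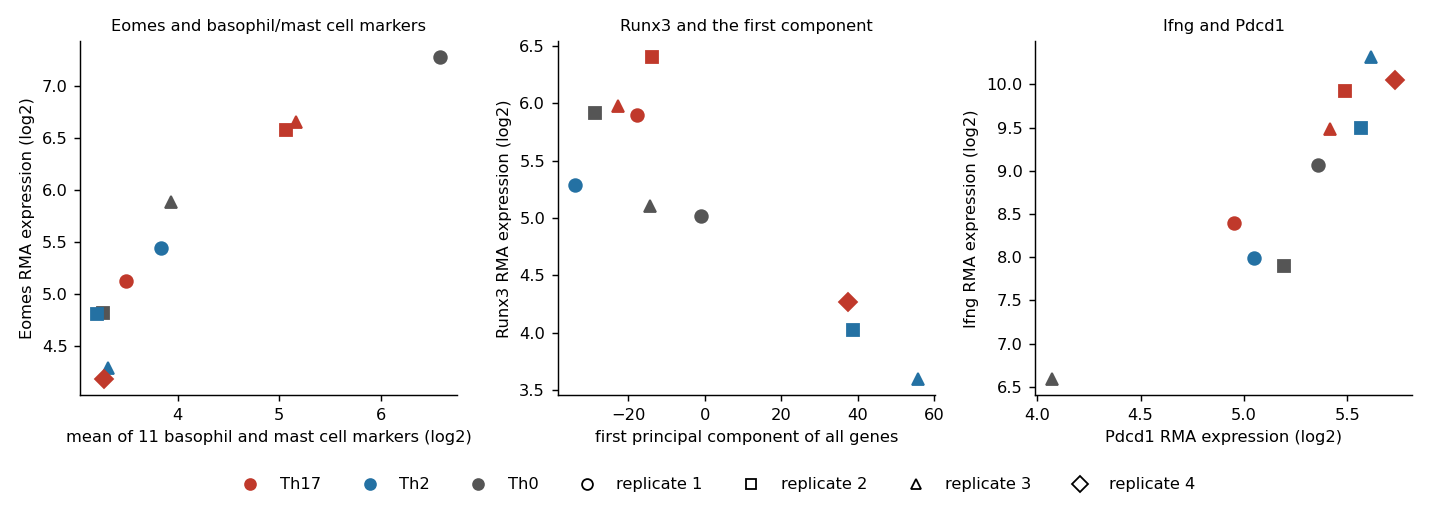
Left, Eomes against the mean of 11 basophil and mast cell markers; middle, Runx3 against the position of the array on the first principal component of all genes; right, Ifng against Pdcd1 (all expression in log2). Each point is an array, coloured by group and shaped by replicate number. Th17 replicates 2 and 3 and Th0 replicate 1 lie at the upper right on the left, Th17 replicate 4 and Th2 replicates 2 and 3 at the lower right in the middle, and on the right Th0 replicate 3 is lowest for both genes, while Th17 replicate 4 and Th2 replicate 3 are highest for both.

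Hlx (probe set 17230715), on chromosome 1, encodes the homeobox factor that cooperates with T-bet on Ifng, and it varied least of the members. It stood at 4.04, 4.52, 4.69 and 4.60 on Th17 replicates 1 to 4 and at 4.08, 4.07 and 3.94 on Th2 replicates 1 to 3, against 4.14, 3.95 and 3.92 on Th0 replicates 1 to 3. Replicates 2 to 4 of Th17 lay above every other array, and Th17 replicate 1 lay among the Th2 and Th0 values. The means were 4.46 ± 0.29 in Th17, 4.03 ± 0.08 in Th2 and 4.00 ± 0.12 in Th0 (SD, n = 4, 3 and 3). Th17 differed from Th0 by 0.46 ± 0.17 (SE; 95% interval 0.09 to 0.83; limma, adjusted p = 0.879) and from Th2 by 0.43 (adjusted p = 0.716). Th2 differed from Th0 by 0.03 (95% interval -0.37 to 0.43; adjusted p = 0.986). RMA compresses differences between weakly hybridising probe sets, so a fold change of such a gene is understated.

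Cxcr3 (probe set 17543625), on chromosome X, encodes the chemokine receptor that marks Th1 cells, and its mean, like that of Ifng, was higher in the cultures with the antibody. It stood at 5.42, 5.80, 5.59 and 6.13 on Th17 replicates 1 to 4 and at 5.33, 5.64 and 6.16 on Th2 replicates 1 to 3, against 5.08, 5.50 and 4.92 on Th0 replicates 1 to 3. Th0 replicate 2 lay above replicate 1 of Th17 and of Th2, so the groups overlapped. The means were 5.74 ± 0.30 in Th17, 5.71 ± 0.42 in Th2 and 5.17 ± 0.30 in Th0 (SD, n = 4, 3 and 3). The average of Th2 and Th17 lay above Th0 by 0.55 ± 0.21 (SE), or 1.47-fold with a 95% interval of 1.06-fold to 2.04-fold (limma, adjusted p = 0.876). Without the 3 arrays apart on the first component it was 0.30. The Th2 difference from Th0 was 0.54 with all arrays. It was 0.16 without those 3, then resting on Th2 replicate 1 alone. Th17 and Th2 differed by 0.02 (95% interval -0.50 to 0.54; adjusted p = 0.997).

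**Figure D3:**
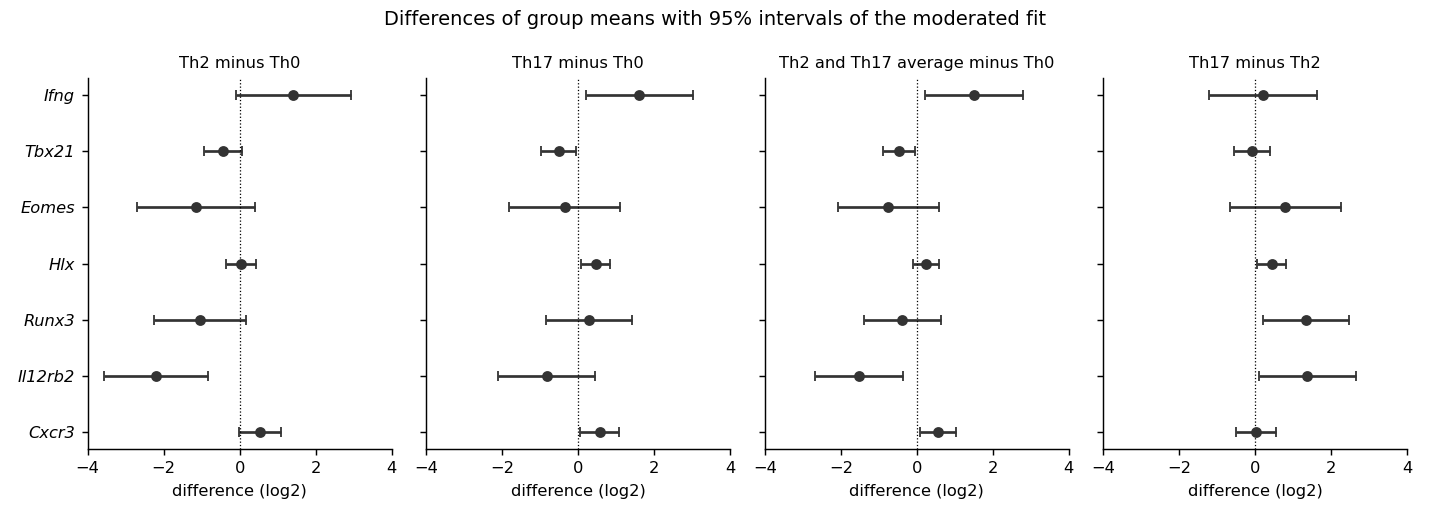
Difference of group means (log2) for each gene in the 4 comparisons; points are estimates and bars their 95% intervals from the moderated fit, for a single gene. Il12rb2 lies at -2.21 in Th2 minus Th0, Ifng at 1.51 and Tbx21 at -0.47 in the average of Th2 and Th17 minus Th0, and none of the 28 differences passed the test after adjustment.

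The members differed in how much they varied between arrays of a group. The SD that remained within groups was 1.07 for Eomes, 1.04 for Ifng, 0.94 for Il12rb2 and 0.82 for Runx3, larger than or equal to that of 99.5%, 99.4%, 99.0% and 98.2% of all genes. It was 0.34 for Cxcr3, 0.30 for Tbx21 and 0.21 for Hlx, at 71.8%, 61.8% and 31.9%. Ifng and Cxcr3 ranked the arrays alike at both ends. Th2 replicate 3 was highest, Th17 replicate 4 next and Th17 replicate 2 after it for both, and Th0 replicate 3 was lowest for both. Th0 replicates 1 and 2 ranked 6 and 9 for Ifng, but 9 and 6 for Cxcr3. Th2 replicate 3 and Th17 replicate 4 were among the arrays apart on the first component.

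By the same measure of likeness over the 10 arrays, the genes closest to Ifng were Snrpc, a protein of the U1 small nuclear ribonucleoprotein (r = 0.943, rho = 0.939), Pdcd1, the inhibitory receptor PD-1 (r = 0.928, rho = 0.927), and Rgs16, a regulator of G protein signalling (r = 0.922, rho = 0.964). Those closest to Cxcr3 were the MAP kinase phosphatase Dusp4 (r = 0.901, rho = 0.903), Snrpc again (r = 0.899, rho = 0.903) and the integrin chain Itgav (r = 0.891, rho = 0.915). Runx3 was closest to the IL-21 receptor Il21r (r = 0.985, rho = 0.939), the diacylglycerol kinase Dgka (r = 0.983, rho = 1.00) and Zc3h12d (r = 0.976, rho = 0.952). Il12rb2 was closest to Parp9 (r = 0.913, rho = 0.939), the kinesin Kif2a (r = 0.908, rho = 0.891) and Stxbp2, which serves granule release (r = 0.885, rho = 0.794). Hlx was closest to the uridine phosphorylase Upp1 (r = 0.903, rho = 0.842), Klhl2 (r = 0.838, rho = 0.818) and Tspan3 (r = 0.826, rho = 0.600). Tbx21 had the weakest neighbours, Gtdc1 (r = 0.739, rho = 0.648), Ero1a (r = 0.733, rho = 0.758) and Plaat3 (r = 0.714, rho = 0.612). Runx3 and Il12rb2 and their neighbours Il21r, Dgka, Zc3h12d and Parp9 were all low on Th17 replicate 4, an array apart on the first component. There Il21r, Dgka and Zc3h12d stood at 6.42, 7.49 and 6.04. On Th2 replicates 2 and 3, also apart, they were lower still, at 5.88 and 5.54, 6.89 and 6.15, and 5.33 and 5.48. The search for neighbours used these arrays too, so shared low values there follow in part from the search.

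Upstream of Ifng, the genes of the IL-12, IL-18 and IL-27 receptor axis (15 of 16 measured, Il12rb2 among them) had a median difference of -0.30 in the average of Th2 and Th17 against Th0, where the median of all genes was -0.01. Of the 15, 11 had lower values, as did 52.2% of all genes, and 0 were called. Of these, 9 were lower without the 3 arrays apart on the first component. In that comparison 8 of 9 T cell identity genes had lower values too, with a median difference of -0.30 and 0 called, and their part in the differences of this list and of the interferon lists was not tested. Stat4, the factor through which IL-12 acts, averaged 7.57 ± 0.26 in Th17, 6.97 ± 0.86 in Th2 and 8.54 ± 0.69 in Th0 (SD, n = 4, 3 and 3). Its difference from Th0 was -1.58 in Th2 (limma, adjusted p = 0.767) and -0.97 in Th17 (adjusted p = 0.912). No Th17 array reached the lowest Th0 array, as for 4.35% of all genes. Il12a, the p35 chain of IL-12, a cytokine made mainly by antigen-presenting cells, averaged 2.90 in Th17, 3.20 in Th2 and 3.79 in Th0. Every array with the antibody lay below every Th0 array, as for 0.798% of all genes. The median over all probe sets was 3.39 to 3.61 on the arrays, so the Il12a values lay around it. Whether they exceeded background was not tested. Il12rb1, the shared chain of the IL-12 and IL-23 receptors, averaged 5.94 in Th17, 6.43 in Th2 and 6.67 in Th0. Il18r1, the IL-18 receptor chain that acts with IL-12 on Ifng, averaged 6.06 ± 0.82 in Th17, 4.33 ± 0.52 in Th2 and 4.72 ± 0.17 in Th0. Its 4 Th17 arrays lay above the 3 Th0 arrays (difference 1.34, limma, adjusted p = 0.612), as for 3.22% of all genes.

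The genes of the interferon gamma receptor and its signalling (13 of 14 measured) had a median difference of -0.22 in the average of Th2 and Th17 against Th0. Of these, 0 were called and 10 of 13 were lower, as were 52.2% of all genes. This count was 3 of 13 without the 3 arrays apart on the first component. Ifngr1, the chain that binds the cytokine, stood at 6.38 on Th17 replicate 4 and at 5.84 and 6.15 on Th2 replicates 2 and 3, and at 7.39 or above on the other arrays. Ifngr2, the signalling chain, averaged 6.96 in Th17, 6.24 in Th2 and 6.38 in Th0. Socs3, an inhibitor that IL-6 and STAT3 induce, was higher on each Th17 array than on each Th2 array (difference 2.01 ± 0.37 SE, limma, adjusted p = 0.102). Th17 and Th2 did not overlap, in either direction, for 5.6% of all genes.

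**Figure D4:**
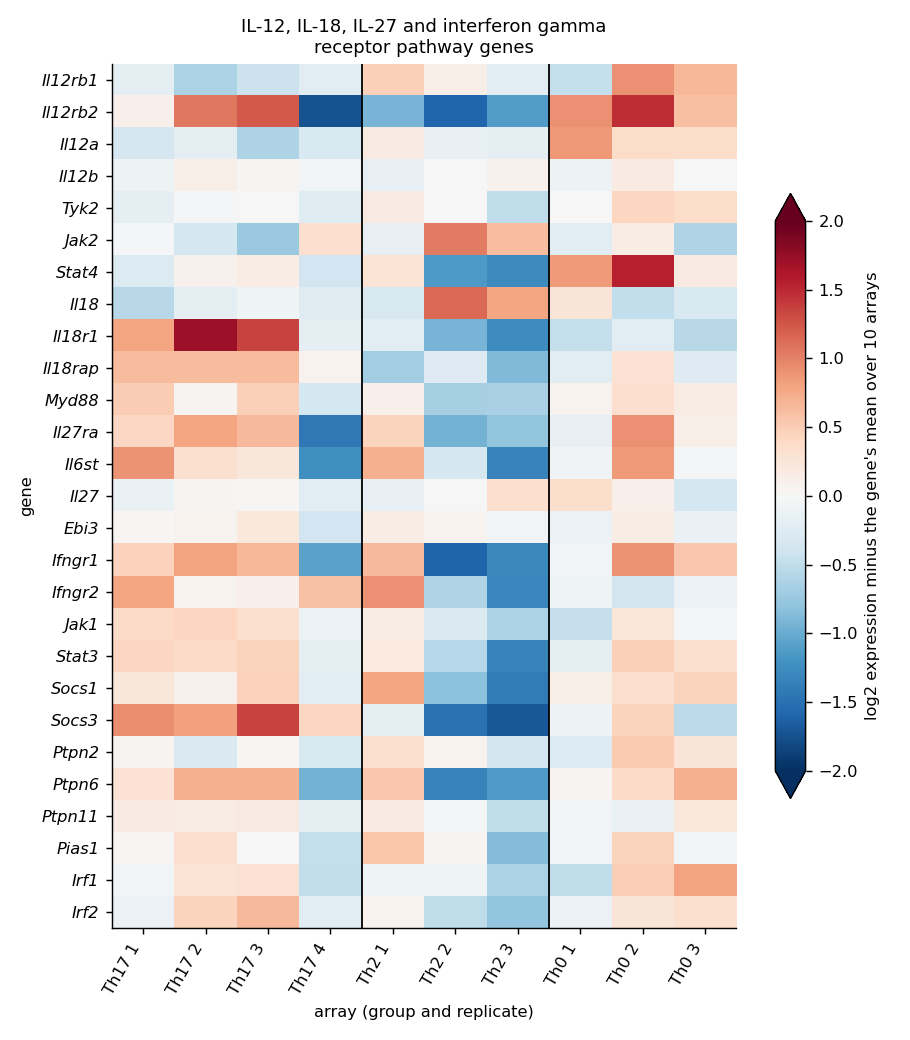
Expression of the genes of the IL-12, IL-18 and IL-27 receptor axis and of the interferon gamma receptor pathway on each array, as the log2 value minus the mean of the gene over the 10 arrays; columns are arrays of Th17, Th2 and Th0, divided by black lines. Th2 replicates 2 and 3 and Th17 replicate 4 are low for Ifngr1, Il27ra and Ptpn6, and Stat4 is highest on Th0 replicates 2 and 1.

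Downstream, 31 of 36 genes that interferon gamma induces were measured. Of these, 29 had lower values in the average of Th2 and Th17 against Th0, as did 52.2% of all genes, with a median difference of -0.38 and 0 called. The count was 25 of 31 without the 3 arrays apart, and 25 of 31 without the 3 basophil-marker-high arrays. Psmb10, a subunit of the immunoproteasome, averaged 8.28 ± 0.83 in Th17, 7.34 ± 1.29 in Th2 and 9.02 ± 0.04 in Th0 (difference -1.21, limma, adjusted p = 0.876). Its 7 arrays with the antibody lay below the 3 without it, as for 0.798% of all genes. The closest pair was Th17 replicate 2 at 8.94 and Th0 replicate 2 at 8.97. Gbp8, a guanylate-binding protein, differed by -1.13. Cd274 (PD-L1) and Ciita, the class II transactivator, differed by 0.48 and 0.45. Of the CXCR3 ligands and effector chemokine receptors, 14 of 15 were measured, with 7 higher, 7 lower and 0 called, where 47.8% of all genes were higher. Cxcl10, a ligand of CXCR3, differed by -0.48 and Ccr8, a receptor of Th2 and regulatory T cells, by -1.42, while Cxcr6 differed by 0.99 and Cx3cr1 by 0.33. The Cxcl10 values lay between 3.08 and 4.19 over all arrays, around the medians of all probe sets. Of the 10 B cell and 14 myeloid and dendritic cell markers measured, the sources of several of these transcripts in spleen, 0 were called, with median differences of -0.09 and 0.01. Single arrays differed more. The B cell mean was 4.13 on Th0 replicate 2 and 4.10 on Th17 replicate 1, against 3.35 to 3.72 on the other arrays. The myeloid and dendritic cell mean was 4.05 on Th17 replicate 1, against 3.18 to 3.75 on the other arrays. The part of these cells in the values above was not tested.

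Of the effector genes associated with Th1 cells, 21 of 24 were measured. In the average of Th2 and Th17 against Th0, 14 had higher values, as did 47.8% of all genes, with a median difference of 0.51 and 0 called. Il2, the T cell growth factor, had the largest difference, 2.43 ± 0.78 (SE; adjusted p = 0.876), with 5.24 on Th0 replicate 3 against 7.71 and 9.86 on the other Th0 arrays. Xcl1, a chemokine that activated T cells and NK cells release, differed by 2.03 (adjusted p = 0.895) and stood at 5.38 on Th0 replicate 3, the array that was also lowest in Ifng and Cxcr3. Il2rb and Nkg7 lay at the other end, at -0.91 and -0.81. In Th17 against Th0 1 of the 21 was called, beside 0.104% of all genes: Klrd1, the CD94 receptor chain (difference 2.29, limma, adjusted p = 0.0381). In Th17 against Th2 2 were called, beside 0.0766% of all genes: Ctsw, a protease of cytotoxic cells (4.11, adjusted p = 0.00446), and Klrd1 (difference 2.60, adjusted p = 0.0177). Cxcr6, a receptor of effector T cells, was higher on each Th17 array than on each Th0 array (difference 1.32, adjusted p = 0.117), as for 3.22% of all genes. Ctsw was called in 17 of 18 alternatives, the exception being without the 3 basophil-marker-high arrays. Klrd1 was called in 7 of 17 alternatives in Th17 against Th0 and in 10 of 17 in Th17 against Th2, and it lost both calls without Th17 replicate 1 or 2 and without Th2 replicate 2 or 3. The call against Th0 was also lost without Th17 replicate 3 and without Th0 replicate 1 or 3.

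Among 27 measured partners and opponents of T-bet and Runx3 (of 31), the median difference in the average of Th2 and Th17 against Th0 was 0.002. Of the 27, 14 were higher, as were 47.8% of all genes, 13 were lower and 0 were called. In Th17 against Th0, Jun, a subunit of AP-1, rose by 2.56 and Gata3, the Th2 factor that opposes T-bet, fell by 1.92 (limma, adjusted p = 0.0381 each), while Tbx21 itself differed by -0.52. Of all genes, 0.104% were called in that comparison. Jun and Gata3 were each called in 6 of 18 alternatives, and both calls were lost when any 1 of the Th17 or Th0 arrays was left out. In Th2 against Th0, Gata3 differed by -0.23 (adjusted p = 0.927). Fli1, an Ets factor, differed by -0.85 and Irf4, a factor of activated T cells, by 0.87 in the average of Th2 and Th17 against Th0.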

How the data were processed

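The authors deposited 1 table of log2 values for 10 arrays. Per the submitters' processing notes they came from RMA, which corrects the background, quantile-normalizes the arrays and summarises each probe set; the program was Affymetrix Expression Console 1.3.0.187. The number of arrays limits the precision. No source used here names the genome build or the annotation version. Of 41345 probe sets, 23521 had 1 gene symbol, 1814 had several and 16010 were not in the probe table. A gene with several was represented by its brightest probe set (mean of 10 arrays), which left 22180 genes. Of the Entrez IDs 23328 matched the RefSeq gene table of GRCm38.p6, and 0 symbols changed. Other genes were not analysed here.

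One model of the 3 group means was fitted with limma 3.58.1 in R 4.3.3 (lmFit and eBayes, 7 residual degrees of freedom). Two-sided p-values were adjusted across all genes per contrast (Benjamini-Hochberg). The fit was tested on simulated data with independent noise for each gene, so without the shared first component of these arrays. In Th2 against Th0 it called 26 of 50 genes with a true log2 difference of 1. It called 47 of 50 at a difference of 2, and made 7 false calls. Alternatives were quantile normalization, a filter at a mean of 5, the mean over probe sets, array weights, a replicate block in 2 numberings (the description of Th2 replicate 3 carries the number 4) and leaving out arrays.

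Named from the lists are, per list, the called genes with the largest change and the 2 with the largest increase and decrease in the average of Th2 and Th17 against Th0; any gene of the receptor lists and the lineage check genes; and the 3 genes most like each member. The members and lists were chosen with earlier results of these data known. Cell type markers were named after their values were seen.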

Additional observations from a re-analysis of the deposited data

Results flagged for a closer look

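Only Th17, the group with 4 arrays, was tested for a single array far from the others (Dixon's test at 95%). Th2 and Th0 were not tested in this way. Chance alone marks about 1 in 20 groups. Of 78 genes tested, 8 had such an array. Tbx21 was at 5.89 on Th17 replicate 1, below 6.26 to 6.33 on the other Th17 arrays, and Nkg7, a protein of cytotoxic granules, was at 7.21 on the same array. On Th17 replicate 4, an array apart on the first component, 6 genes lay below the other Th17 arrays: Parp9 at 4.70, Il21r at 6.42, Fli1 at 6.72, Il18rap at 4.11, Ptpn11 at 5.98 and Stat3 at 7.56. Parp9 and Il21r are the closest neighbours of Il12rb2 and Runx3, which were lowest in Th17 on that array too, at 5.26 and 4.27. They were picked for likeness over these same arrays, so their low values there are not a separate observation.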

How the results depend on the processing

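None of the 7 members was called in any of the 18 alternatives of any comparison (limma), of which Hlx had 17, being under the filter on low values. The use of another probe set of a member could not be run, since each had 1. Signs turned, all without passing the test, as follows. With quantile normalization Hlx was at -0.00473 in Th2 against Th0 and Cxcr3 at -0.0451 in Th17 against Th2. With array weights Eomes was at 0.0935 in Th17 against Th0, and Ifng at -0.0399 and Cxcr3 at -0.0131 in Th17 against Th2. With the replicate block Eomes was at 0.13 in Th17 against Th0 and Cxcr3 at -0.11 in Th17 against Th2; with the block that numbers Th2 replicate 3 as 4, Eomes was at 0.0141 in Th17 against Th0 and Runx3 at 0.0174 in the average against Th0. Without the arrays apart on the first component Eomes was at 0.13 in Th17 against Th0, Tbx21 at 0.37 in Th17 against Th2 and Runx3 at 0.34 in the average against Th0. Without the basophil-marker-high arrays Runx3 was at -0.43 in Th17 against Th0, and Ifng at -0.0419 and Eomes at -0.19 in Th17 against Th2. Leaving out 1 array in turn, the ranges that crossed 0 were -0.0113 to 0.10 for Hlx in Th2 against Th0, -0.95 to 0.28 for Eomes in Th17 against Th0, and -0.44 to 0.72 for Ifng, -0.32 to 0.0385 for Tbx21 and -0.17 to 0.25 for Cxcr3 in Th17 against Th2.

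The numbers in the paragraph above are differences on the log2 scale. The count of all called genes, 0 in Th2 and 23 in Th17 against Th0, 17 in Th17 against Th2 and 2 in the average against Th0, moved more. Leaving out 1 array in turn gave 0 to 431, 2 to 36, 3 to 298 and 0 to 40, the highest each time without Th2 replicate 1. With the replicate block the counts in Th17 against Th0, Th17 against Th2 and the average were 8, 11 and 0, and with the other numbering 5, 5 and 1. Same-numbered arrays of different groups correlated between -0.31 and 0.30 over 9 pairs in their deviations from the group means by the title numbers, and between -0.29 and 0.49 over 8 pairs by the description numbers, the highest being Th17 replicate 4 with Th2 replicate 3. Only 1 of the 9 and 2 of the 8 pairs were over 0.1, so neither numbering was taken to pair the arrays. Without the arrays apart they were 2 in Th2 and 46 in Th17 against Th0 and 1 in the average, and without the basophil-marker-high arrays 3 in Th17 against Th0, 6 in Th17 against Th2 and 0 in the average. Array weights gave 60 in Th17 against Th0 and 330 in Th17 against Th2, the filter on low values 10 in Th17 against Th2 and quantile normalization 0 in the average. The causes were not tested. The list counts without either set of 3 arrays were added after the data were seen.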
